A study of Mus musculus with 8 samples.

Results

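The 8 genes described here encode calcium-binding proteins of neurons: Calb1, Calb2, Pvalb, Cabp1, Cabp7, Hpca, Ncald and Vsnl1. They were taken by name, and each was found once in all 3 expression tables, which list 15598 genes for the knockdown and cytoplasmic comparisons and 15489 for the nuclear one. RNA-seq was done on cultured mouse hippocampal neurons at 14 days in vitro (DIV), in 8 samples that form 4 groups of 2. All groups were transduced at 9 DIV with adeno-associated virus (AAV2/9, 1500 genomic copies per cell, 12 hours) under the synapsin promoter SynI, which is active in neurons, and then received Accell siRNA from 10 DIV for 4 days. The control group had EGFP virus with Non-targeting siRNA, and the knockdown group had EGFP virus with siRNA against Rbfox1 and Rbfox3. The cytoplasmic and nuclear rescue groups had that same siRNA with virus for Flag-Rbfox1_C_siMt or Flag-Rbfox1_N_siMt, the cytoplasmic or the nuclear splice isoform of Rbfox1. The design asks how transcripts respond to loss of both proteins, and how the knockdown profile moves when a single isoform is supplied.

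These proteins bind calcium through EF-hands, helix-loop-helix motifs that hold a calcium ion. Calbindin, calretinin and parvalbumin mainly buffer calcium and are used to mark classes of neurons. CaBP1 and CaBP7 are calmodulin relatives that regulate channels and enzymes, and hippocalcin, neurocalcin-delta and visinin-like protein 1 are neuronal calcium sensors, which move to membranes when calcium rises. Rbfox proteins regulate splicing by binding UGCAUG in RNA, and the cytoplasmic Rbfox1 isoform is also known to bind that motif in 3′ untranslated regions (UTRs).

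Levels are FPKM, fragment counts scaled to transcript length and library size, and the authors combined the libraries of a group into 1 value, so a spread between samples cannot be given. A gene is called changed where the q-value of the authors' deposited table is below 0.05. The implied error is the absolute value of the log2 change divided by the authors' test statistic. The 95% intervals are 1.96 such errors to each side. The labels do not say whether replicates are separate cultures, so the p-values may measure technical spread only.

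Rbfox1 was at 25.7 FPKM in control, 1.94 in knockdown, 16.1 in the cytoplasmic and 38.2 in the nuclear rescue, and Rbfox3 at 12.4, 1.59, 1.59 and 1.53 FPKM. The isoform and the amount of Rbfox1 RNA thus differ together between the rescues and cannot be told apart. Pan-neuronal markers (9 matched of 10 listed) summed to between 1470 and 1577 FPKM in the 4 groups and none was called in any table. That sum joins opposite shifts: in the knockdown 4 markers lay above and 5 below control. Snap25 went from 456 to 323 FPKM and Tubb3 from 291 to 408, so single markers were not steady. Astrocyte markers (8 of 8) summed to between 1421 and 1575 FPKM, so the cultures held RNA of glia too, and none of them was called. Of other markers, Mag and Mbp (oligodendrocytes) and Dcx (early neurons) rose in the knockdown, and C1qa, C1qc and Csf1r (microglia) fell. Microglia levels were low, with C1qa going from 3.50 to 1.97 FPKM and Csf1r from 0.653 to 0.313. Kdr (vascular, 2 of 5 matched) fell in the cytoplasmic rescue. Its levels were 0.284 FPKM in control, 0.489 in knockdown and 0.271 in that rescue.

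In the knockdown 3 of the 8 genes were called: Calb2 rose, and Cabp7 and Vsnl1 fell. Of all genes tested 2.35% were called, 0.776% higher and 1.58% lower. The 8 genes were picked with results of these data known, so their share of 37.5% is a description. Their median log2 change was -0.25, with 3 above and 5 below 0, beside a median of 0.03 over the 12521 genes with FPKM of at least 1 in a compared group. In bulk RNA, fewer cells of a type and less RNA per cell cannot be told apart.

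**Figure D1:**
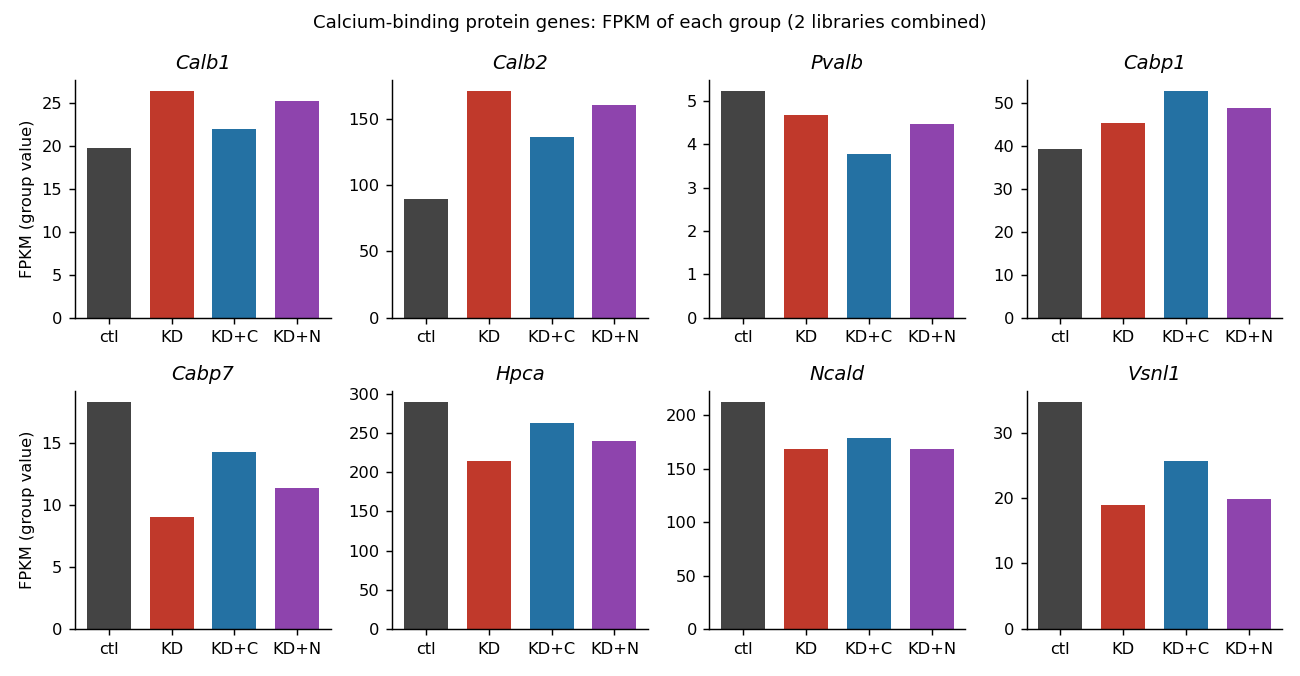
FPKM of the 8 genes (y axis, starting at 0 and scaled per gene) in control (ctl), knockdown (KD), and knockdown with the cytoplasmic (KD+C) or nuclear (KD+N) isoform, as 1 bar per group with no error bar because each bar is the authors' combined value. Calb2 is highest in knockdown at 171 FPKM and lowest in control at 90.1, and Cabp7 and Vsnl1 are lowest in knockdown at 9.01 and 19.0.

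Among the buffers, Calb2 (calretinin, chromosome 8, 112666438 to 112692106 in mm9) was at 90.1 FPKM in control, 171 in knockdown, 137 in the cytoplasmic and 161 in the nuclear rescue. Control was the lowest group, and all 3 groups that received Rbfox siRNA lay above it. In the knockdown the log2 change was 0.93 with an implied error of 0.146, a ratio of 1.90, and q was 1.99e-07 in the authors' deposited table. By test statistic this was rank 10 of the 121 rises. With the cytoplasmic isoform the log2 change against knockdown was -0.33, with an interval from -0.64 to -0.01 and q = 0.751 in the authors' deposited table. With the nuclear isoform it was -0.09, with an interval from -0.46 to 0.28 and q close to 1 in the authors' deposited table. Calb2 therefore passed the test in neither rescue.

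Calretinin marks some interneurons, Cajal-Retzius cells and mossy cells, whose other markers were therefore set beside it. Of 17 interneuron markers measured, 5 fell in the knockdown (Cck, Gad2, Npy, Tac1 and Vip) and none rose, and their summed level went from 640 to 413 FPKM, with 442 and 414 in the cytoplasmic and nuclear rescue. Npy, a neuropeptide gene, rose in the cytoplasmic rescue as the 1 interneuron marker called there. Of Cajal-Retzius markers 7 of 9 listed were matched and none was called in the 3 tables. Their sum was 33.3 FPKM in control, 31.1 in knockdown, 29.2 in the cytoplasmic and 28.9 in the nuclear rescue. Reln, the secreted protein that defines those cells but is made by interneurons too, held most of it at 28.8 and 26.1 FPKM in control and knockdown. Trp73, Lhx5 and Ebf3 lay below 1 FPKM in all groups. Among 5 matched markers of mossy or CA3 neurons, Csf2rb2 rose from 0.142 to 0.411 FPKM and Spock1 fell from 11.01 to 7.56. The part that cell numbers have in the rise of Calb2 was not tested.

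Calb1 (calbindin, chromosome 4, 15808411 to 15833856) had the same order of groups at a lower level: 19.7 FPKM in control, 26.4 in knockdown, 21.9 in the cytoplasmic and 25.2 in the nuclear rescue. Its log2 change in the knockdown was 0.42 (interval 0.16 to 0.68), with p = 0.00132 and q = 0.0948 in the authors' deposited table, so it was not called. With Benjamini-Hochberg adjustment of the authors' deposited p over the knockdown table alone, the adjusted p was 0.0449, below the threshold. Calbindin also marks dentate granule cells, for which 7 of 8 listed markers were matched. Their sum went from 88.5 to 82.6 FPKM, and Dsp, a desmosomal protein gene, rose from 0.647 to 1.21 FPKM as the 1 called marker, and fell to 0.687 in the cytoplasmic rescue. Prox1, the transcription factor that defines granule cells, was at 3.30 and 2.79 FPKM and was not called. Calb1 was called in neither rescue, with log2 changes of -0.27 (cytoplasmic, interval -0.55 to 0.01) and -0.06 (nuclear, interval -0.35 to 0.22).

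Pvalb (parvalbumin, chromosome 15, 78021548 to 78034586) was the lowest of the 8 genes. It was at 5.23 FPKM in control, 4.67 in knockdown, 3.78 in the cytoplasmic and 4.46 in the nuclear rescue. The knockdown log2 change was -0.16, with an interval from -0.56 to 0.23, and no comparison passed the test. The interval reaches changes of about that of Hpca in size, so a moderate fall of Pvalb was not detectable here.

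Of the CaBP genes, Cabp7 (chromosome 11, 4638824 to 4646781) was called and Cabp1 was not. CaBP7, also called calneuron 2, is known to restrain phosphatidylinositol 4-kinase beta at the Golgi. Cabp7 was at 18.2 FPKM in control, 9.01 in knockdown, 14.2 in the cytoplasmic and 11.4 in the nuclear rescue, so control was the highest and knockdown the lowest group. The knockdown log2 change was -1.02 with an implied error of 0.174 and q = 3.36e-06 in the authors' deposited table, or 49.4% of control. Against knockdown, the cytoplasmic isoform raised it by a log2 change of 0.66 (interval 0.31 to 1.01), with q = 0.0236 in the authors' deposited table. Both comparisons use the same knockdown libraries. The nuclear isoform gave 0.33 (interval -0.02 to 0.69), with q = 0.896 in the authors' deposited table. The call in the cytoplasmic rescue was lost at q below 0.01 and with adjustment within that table, where the adjusted p by Benjamini-Hochberg was 0.0571. With the median log2 change of genes at FPKM of at least 1 subtracted, the change was 0.72 and the call stayed. Its adjusted p was then 0.00834, read from the authors' deposited relation of q to p. Exons of Cabp7 overlap those of Zmat5 on the other strand in the GENCODE annotation, and without strand information their reads cannot be told apart there. Zmat5 was at 13.6, 11.6, 12.4 and 11.5 FPKM in control, knockdown, cytoplasmic and nuclear rescue, and was not called.

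Cabp1 (chromosome 5, 115618700 to 115636130), a regulator of inositol trisphosphate receptors and voltage-gated calcium channels, was at 39.3 FPKM in control, 45.5 in knockdown, 52.8 in the cytoplasmic and 48.8 in the nuclear rescue. Control was again the lowest group, but the knockdown log2 change of 0.21 (interval -0.04 to 0.47) was not called. In the rescues its log2 changes were 0.22 and 0.10, both with q close to 1 in the authors' deposited table.

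All 3 neuronal calcium sensors were lower in knockdown than in control, and Vsnl1 alone was called. Vsnl1 (visinin-like protein 1, chromosome 12, 11332051 to 11443455), a sensor known to act on guanylyl cyclases and on receptor traffic, was at 34.6 FPKM in control, 19.0 in knockdown, 25.7 in the cytoplasmic and 19.8 in the nuclear rescue. The nuclear rescue lay close to knockdown, and the cytoplasmic rescue lay between knockdown and control. The knockdown log2 change was -0.87 with an implied error of 0.129 and q = 1.87e-08 in the authors' deposited table, rank 30 of the 246 falls by test statistic. The cytoplasmic isoform gave a log2 change of 0.44 (interval 0.16 to 0.71), with p = 0.00197 and q = 0.125 in the authors' deposited table, so it was not called. With the median change of the 12443 genes with FPKM of at least 1 in that comparison (-0.06) subtracted, it was 0.50 and passed, at an adjusted p of 0.0430 read from the authors' deposited relation of q to p. The nuclear isoform gave 0.06 (interval -0.21 to 0.33), with q close to 1 in the authors' deposited table.

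Hpca (hippocalcin, chromosome 4, 128782774 to 128798984), a sensor abundant in hippocampal pyramidal cells, had the highest level of the 8 genes. It was at 289 FPKM in control, 215 in knockdown, 263 in the cytoplasmic and 240 in the nuclear rescue. Its groups stood in the order seen for Cabp7 and Vsnl1. The knockdown log2 change was -0.43 (interval -0.74 to -0.12), with p = 0.00675 and q = 0.277 in the authors' deposited table. Ncald (neurocalcin-delta, chromosome 15, 37295930 to 37722183), a sensor linked to vesicle traffic, was at 212 FPKM in control, 168 in knockdown, 179 in the cytoplasmic and 168 in the nuclear rescue. Its knockdown log2 change was -0.33 (interval -0.72 to 0.05). Neither gene was called in any table. Markers of glutamatergic neurons (5 matched of 6) summed to 326 FPKM in control and 292 in knockdown, with Neurod2 called lower, and their part in these values was not tested. Among CA1 markers (5 of 5) Pou3f1 was called higher in the knockdown, going from 1.24 to 2.05 FPKM. The other 4 lay below control there and were not called, and the sum went from 30.5 to 26.3 FPKM.

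**Figure D2:**
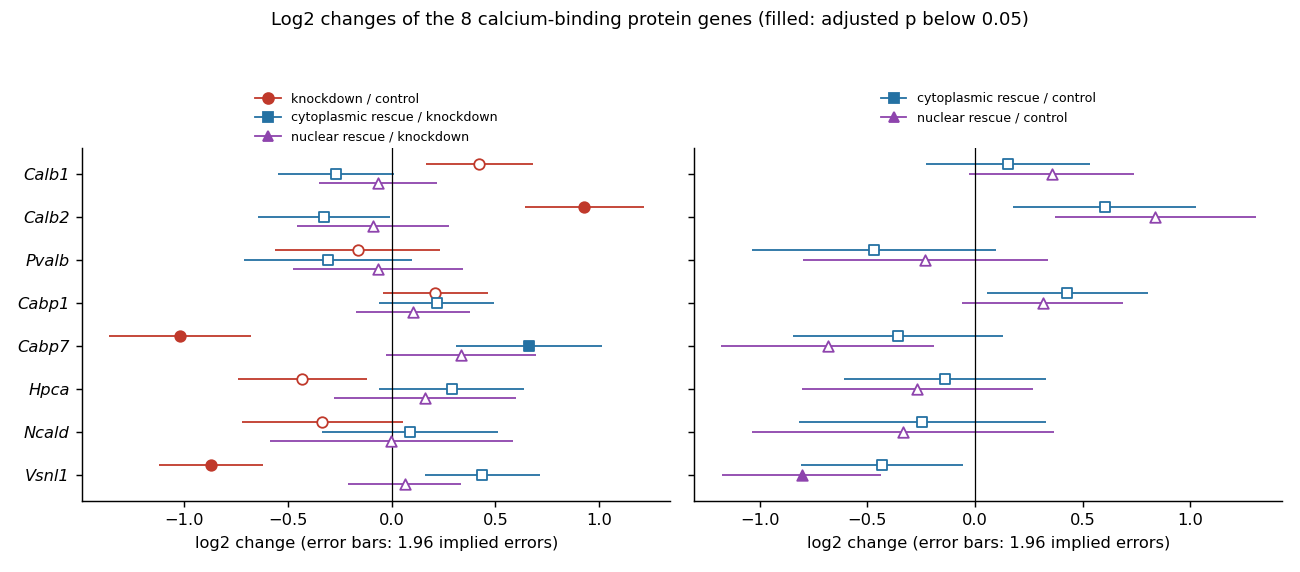
Log2 changes (x axis) of the 8 genes, with bars of 1.96 implied errors to each side. Left, the authors' comparisons of knockdown with control and of each rescue with knockdown, and right, each rescue against control. Filled symbols mark adjusted p below 0.05: Calb2, Cabp7 and Vsnl1 in the knockdown, Cabp7 in the cytoplasmic rescue, and Vsnl1 in the nuclear rescue against control.

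By control FPKM, Cabp7 stood at percentile 73.3 of all genes, Vsnl1 at 85.1 and Calb2 at 94.5. Pvalb stood at 45.5 and Hpca at 98.5.

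**Figure D3:**
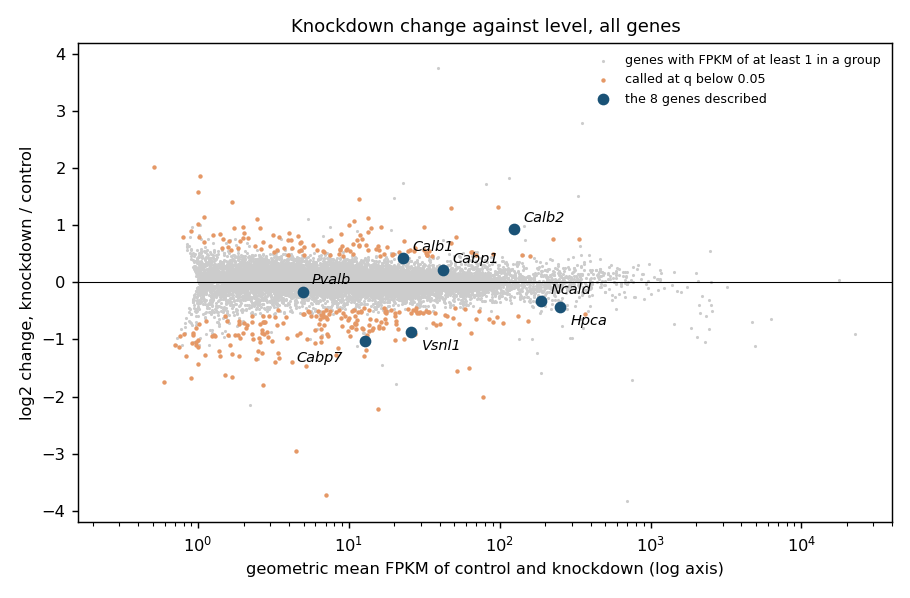
Log2 change of knockdown against control (y axis) by geometric mean FPKM (x axis, log scale) for 12521 genes with FPKM of at least 1 in either group. Of these, 4 lie beyond the y axis limits of 4.2. Calb2 sits above and Cabp7 and Vsnl1 sit below the band of most genes, and the other 5 genes lie in or near it.

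Next, the rescues were set against control and against each other. No deposited table makes these comparisons, so the log2 changes were added or subtracted and tested by a z test with both implied errors, adjusted by Benjamini-Hochberg over all genes, which is conservative because the knockdown values cancel. Against control, 0.697% of 15346 genes differed in the nuclear rescue (0.489% lower) and 0.403% of 15381 in the cytoplasmic rescue. Vsnl1 was the 1 of the 8 genes that passed: in the nuclear rescue it was at 57.2% of control, a log2 difference of -0.80 (interval -1.17 to -0.43, adjusted p = 0.00692 by the z test on the authors' deposited statistics). In the cytoplasmic rescue Vsnl1 was at 74.1% of control (adjusted p = 0.951 by the z test on the authors' deposited statistics). Calb2 in the nuclear rescue was at 179% of control, a log2 difference of 0.84 (interval 0.37 to 1.30), just short of the threshold (adjusted p = 0.0568 by the z test on the authors' deposited statistics). In the cytoplasmic rescue it was at 152% (adjusted p = 0.393 by the z test on the authors' deposited statistics). Cabp7 was at 78.1% of control in the cytoplasmic and 62.3% in the nuclear rescue, with adjusted p close to 1 and of 0.393 by the z test on the authors' deposited statistics. Cabp1 in the cytoplasmic rescue was at 135% of control, a log2 difference of 0.43 (interval 0.05 to 0.80). It did not pass (adjusted p = 0.969 by the z test on the authors' deposited statistics). With the larger of the 2 errors alone, Calb2, Cabp7 and Vsnl1 passed in the nuclear rescue and Calb2 in the cytoplasmic rescue.

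Between the rescues 0.026% of 15365 genes differed, and none of the 8 was among them by the z test, while none of the 8 had an unadjusted p below 0.05 either. The nearest was Vsnl1, at 25.7 FPKM in the cytoplasmic and 19.8 in the nuclear rescue, a log2 difference of 0.37 (interval -0.01 to 0.76, unadjusted p = 0.0588 by the z test on the authors' deposited statistics, adjusted p close to 1). For Cabp7 the difference was 0.33 (interval -0.17 to 0.83) and for Calb2 -0.24 (interval -0.72 to 0.25). These intervals hold both no difference and differences of the size of the knockdown changes of some of these genes, so they do not show that the isoforms act alike. In the cytoplasmic comparison, of all genes 0.506% were called, 0.333% higher, and Cabp7 was the 1 of the 8. In the nuclear comparison 0.11% were called and none of the 8, and none had an unadjusted p below 0.05 there.

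No exon of these genes stands in the 3 splicing tables, which list 214, 150 and 318 cassette exons that the authors called. Exons that were not called are not listed, so this gives no measure of inclusion for the 8 genes. Their transcripts were therefore searched for the Rbfox motif outside the coding part. The search covered, on the transcript strand, the longest annotated 3′ UTR of each gene for TGCATG and for the shorter GCATG it contains (GENCODE M21 transcripts, GRCm38, written as DNA). Over 20979 genes, 32.2% of such UTRs hold TGCATG and 55.2% hold GCATG. A match is a description of the letters and not a binding site.

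Matches of the longer motif were found in 5 of the 8 genes. The windows below show those of the 3 called genes and of the sensors Hpca and Ncald, with 10 bases on each side and the motif in capitals.
Vsnl1, from base 178 after the stop codon: aacacttgtgTGCATGagaatgtcat
Vsnl1, from base 542: atactatattTGCATGccttttgggt
Cabp7, from base 139: ccttaggcctTGCATGgagccatggc
Calb2, from base 252: tccgctgcgaTGCATGagttccttcg
Hpca, from base 786: catgtccctcTGCATGcagccacacg
Ncald, from base 796: ccttgtaaaaTGCATGtttagcgagc
Ncald, from base 2170: gtaattttcaTGCATGcatgttggac
The last window also holds a further match that begins at base 2174 and overlaps the one in capitals.

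Vsnl1 held 2 matches of TGCATG and 3 of GCATG in a UTR of 1065 bases, and 5.80% of 1361 genes with a UTR within 10% of that length held as many TGCATG. Ncald held 3 in 2653 bases, where 8.09% of 1236 genes of like length held as many. Cabp7 held 1 in 1929 bases and 4 GCATG, Calb2 1 in 546 bases and Hpca 1 in 858 bases. At these lengths 50.2%, 15.3% and 24.3% of genes hold at least 1 TGCATG. Cabp1 held 1 GCATG, and Calb1 and Pvalb held neither, though the UTR of Calb1 was the longest at 3301 bases. Genes with matches thus include Calb2, which rose, Vsnl1 and Cabp7, which fell, and Hpca and Ncald, which were not called.

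**Figure D4:**
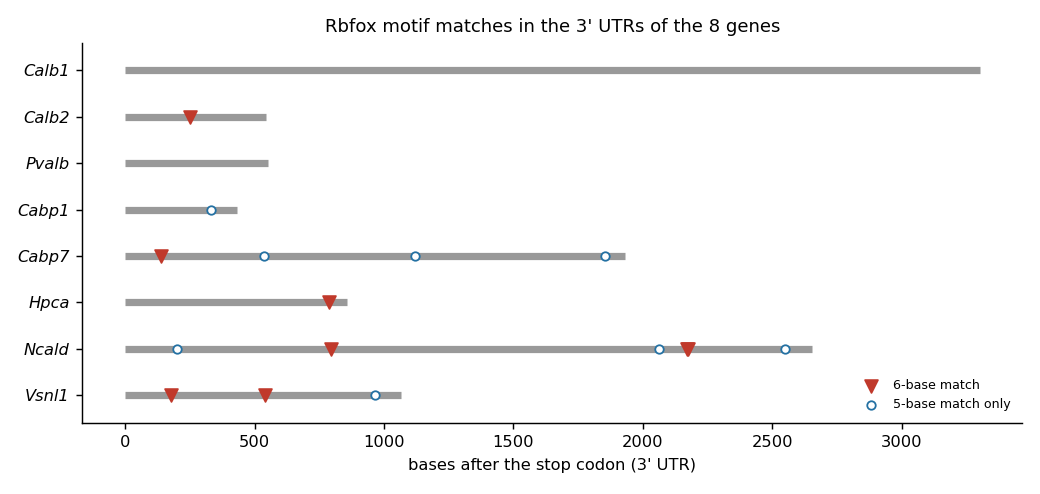
Matches of the Rbfox motif along the longest annotated 3′ UTR of each gene, with bases after the stop codon on the x axis. Triangles mark the longer motif TGCATG and open circles the shorter GCATG alone. Vsnl1 carries 2 triangles, Ncald 3 (of which 2 overlap), Cabp7, Calb2 and Hpca 1 each, and Calb1 and Pvalb carry no mark.

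The other calcium-binding genes show which relatives moved. Of 49 listed, 38 were tested in the knockdown, 1 rose and 4 fell, beside 2.35% called over all genes, and the median log2 change was -0.06. Besides EF-hand families the list holds some calmodulin-binding proteins, among them Pcp4l1, which is 1 of the falls. Necab3, which has an EF-hand and a monooxygenase domain, fell from 12.6 to 5.24 FPKM, with q = 6.69e-13 in the authors' deposited table. Hpcal4, a close relative of Vsnl1 also called visinin-like protein 2, fell from 86.7 to 55.8 FPKM (q = 0.00478 in the authors' deposited table). Pcp4l1, a relative of the calmodulin regulator PCP4, fell from 22.2 to 12.8, and Scgn (secretagogin, a relative of the calbindins) from 0.592 to 0.172 FPKM. Necab2, a partner of G protein-coupled receptors, rose from 76.0 to 107 FPKM (q = 0.0429 in the authors' deposited table) and was at 85.8 and 107 in the cytoplasmic and nuclear rescue. None of the list was called in a rescue, and Hpcal4 stayed at 53.5 and 52.2 FPKM there. Calm2 and Calm3, which encode calmodulin, had the highest levels of the list, at 1574 and 1279 FPKM in control and 1421 and 1196 in knockdown, and were not called. Hpcal1, the nearest relative of Hpca, was at 33.95 and 26.8 FPKM and was not called, and neither was Ncs1 at 69.9 and 64.0.

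Known partners were listed for CaBP1, CaBP7, hippocalcin, neurocalcin-delta and visinin-like protein 1, and for none of the buffers. Of these 24 partners, 22 were tested in the knockdown, and 1 was called, beside 2.35% over all genes. Their median log2 change was -0.0053. The called partner was Kcnq3, a subunit of the M-current channel, which fell from 14.2 to 9.02 FPKM and rose to 12.7 in the cytoplasmic rescue (q = 2.65e-04 and 0.0461 in the authors' deposited tables). The partners with the highest levels in control, Gria2, Cltc and Ap2b1, were at 225, 155 and 107 FPKM and at 200, 154 and 109 in knockdown. Pi4kb, the kinase that CaBP7 binds, was at 15.1 and 14.8 FPKM, and Itpr1, a target of CaBP1, at 3.19 and 3.88, and neither was called.

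Exons of partners of these proteins also stand in the splicing tables. The Cacna1a exon of 36 bases (chromosome 8, 87159448 to 87159483, plus strand, mm9) belongs to the P/Q-type calcium channel that calcium sensors regulate. Its deposited inclusion fraction was 0.808 in control, 0.483 in knockdown, 0.623 in the cytoplasmic and 0.765 in the nuclear rescue. Fisher's exact test on its junction reads, which compares the pooled libraries and not the conditions, passed for knockdown (adjusted p = 5.13e-05) and for the nuclear rescue (adjusted p = 4.41e-04). For the cytoplasmic rescue it did not pass (Fisher's exact adjusted p = 0.101), at junction shares of 41.3% in knockdown and 57.0% in that rescue. The authors called the exon in that comparison too. The rescues were not tested against each other for it. Gria2, an AMPA receptor subunit gene, has entries for a pair of exons of 115 bases. For the exon at chromosome 3, 80495242 to 80495356 (minus strand), the deposited fraction was 0.567 in control and 0.825 in knockdown, beside junction shares of 98.4% and 96.4% (Fisher's exact adjusted p = 0.408). In the cytoplasmic comparison it went from 0.825 to 0.712, beside shares of 96.4% and 100% (Fisher's exact adjusted p = 0.0262). In the nuclear comparison the same knockdown group is listed at 0.294, with 2149 inclusion junction reads in place of 374, and the rescue at 0.142 (Fisher's exact adjusted p = 0.0508). The fraction of this exon is thus not the same across tables for 1 group, and no direction is read from it. The other exon (80494326 to 80494440) is listed in the nuclear comparison alone, at 0.522 in knockdown and 0.720 in the rescue, beside junction shares of 65.4% and 84.0% (Fisher's exact adjusted p = 1.79e-55).

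The genes whose pattern over the 4 groups was nearest were found by the distance between the 3 log2 changes, among 12091 genes with FPKM of at least 1 in all groups. The nearest to Calb2 were Mbp, Igfbp3, Ddc, Mndal and Ankrd13b, at distances from 0.161 to 0.191. Mbp, a myelin protein gene, was at 11.6, 22.6, 20.1 and 21.1 FPKM in control, knockdown, cytoplasmic and nuclear rescue. The nearest to Vsnl1 were C1qa, Fam163b, Cthrc1, Nptx1 and Arsj, at distances from 0.0757 to 0.0952. Nptx1, a neuronal pentraxin gene, was at 87.5, 47.4, 61.4 and 47.4 FPKM in that order. The nearest to Cabp7 were Snhg9, Snord116, Gm13446, Mir654 and D330045A20Rik, of which only D330045A20Rik was called in the knockdown. Among the 8 genes themselves, Hpca and Ncald were nearest to each other (0.276), followed by Cabp7 and Vsnl1 (0.383).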

How the data were processed

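The submitters' processing notes name CASAVA, Cufflinks and the build mm9, without versions. The authors deposited 1 FPKM value per group, a log2 fold change (held here as a score, with extreme values where a group is at 0), a test statistic score, a p-value and a q-value per gene. The splicing tables hold the authors' inclusion fraction, a score for its difference and junction read counts. Sequencing depth per sample is unknown, and 54 other numeric splicing columns were not used.

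Log2 changes are the authors' deposited values, without a pseudocount, and match the ratios of the group FPKM. The authors' test statistic has the opposite sign to the log2 change, so implied errors were taken as absolute values. Implied errors, z tests with Benjamini-Hochberg adjustment and Fisher's exact tests were computed with Python 3.11.15, numpy 2.4.6, pandas 2.3.3 and scipy 1.17.1. The Fisher's exact tests set the mean of both inclusion junctions against the skipping junction and were adjusted per table. The z test was tested on simulated data. Fits per library were planned but need values that these group tables lack. Locus starts were counted from 0 and are printed from 1. The share of 50-base words of a member's transcripts found in another gene was at most 3.28% (Ncald). Besides Cabp7, exons of Hpca overlap those of Tmem54 on the other strand in the GENCODE annotation. Exons of Ncald overlap those of Gm28221 on the other strand and of Gm49397 on the same strand.

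Named genes are the 8 members, called genes and the 3 highest of each list, called markers and the 5 nearest patterns; Reln, Trp73, Lhx5, Ebf3, Prox1, Hpcal1, Ncs1, Pi4kb, Itpr1 and Zmat5, and the motif search, were added after values were seen. A few genes of the lists are not reported here. The members and lists were chosen with earlier results of these data known. Alternatives were q below 0.01, adjustment within a table, pseudocounts of 1 and 0.1, an FPKM minimum of 1, median-centring and the larger error.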

Additional observations from a re-analysis of the deposited data

How the results depend on the processing

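The authors' group values allow no library to be left out. No paired analysis was possible because the tables hold 1 value per group and no value per library. In the knockdown, 3 members were called under each alternative tried, or 4 with adjustment within the table, where Calb1 passed too. In the cytoplasmic rescue the count of members fell from 1 to 0 at q below 0.01 and with adjustment within the table, and that of partners likewise from 1 to 0. With median-centring Cabp7 stayed called in that rescue and Vsnl1 passed too. With the larger error alone, the members that differ from control went from 0 to 1 in the cytoplasmic and from 1 to 3 in the nuclear rescue. Median-centring turned the log2 change of Ncald in the nuclear rescue from -2.44e-04 to 0.011, both near 0. Pseudocounts of 1 and 0.1 moved none of the 24 log2 changes of the members by more than its implied error. A pseudocount cannot turn the direction of a log2 change, and calls were not tested again with one. Depth limits the low genes most, and it is unknown.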

Other observations

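Summed over the family, the buffers Calb1, Calb2 and Pvalb were at 115 FPKM in control, 202 in knockdown, 162 in the cytoplasmic and 191 in the nuclear rescue. The sensors Hpca, Ncald and Vsnl1 were at 536, 402, 468 and 429 FPKM in the same order. The sum over all 8 genes moved less, at 709, 659, 697 and 680 FPKM. These sums have no error, since each rests on 1 value per gene and group, and Calb2 and Hpca hold most of the first pair.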
